A study of Mus musculus with 24 samples.

Results

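The T11 cells given the peptide FPP-1746 alone were compared with T11 cells given Omomyc alone, at 3 h and at 6 h. T11 is a claudin-low cell line from a mammary tumour of the mouse, and per the labels the cells carry a luciferase gene. The comparison covers 12 of the 24 samples and 4 of the 8 columns of the deposited table, because the table holds the average of 3 biological replicates for each of 8 groups. The groups were PBS, Omomyc at 5 µM, FPP-1746 at 5 µM and a fusion of FPP-1746 with Omomyc at 5 µM, each for 3 h and for 6 h. Every group shared the T11 line with its luciferase gene, the low-serum medium and the RNA isolation. The fusion entered here only through the filter on low values, and its 6 h samples carry a 3 h treatment tag where their titles say 6 h. Values are the authors' FPKM, fragments scaled to library size and to the length of the transcript, so levels of different genes can be set side by side. A gene was kept where its mean over the 8 columns was at least 1 FPKM, which left 10262 of 23235 rows. Just inside that limit lay Unc13c with a mean of 1.00 FPKM and log2 ratios of -0.03 and -0.16, and just outside lay Tcf7l1 with 0.998 FPKM and ratios of -0.05 and -0.02.

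Omomyc is a mutated dimerisation domain of the transcription factor MYC. MYC binds DNA as a heterodimer with MAX at E-boxes and drives genes of ribosome production, nucleotide synthesis and growth, and Omomyc competes for MAX and for those sites. FPP-1746 is a cell-penetrating peptide, a class of short peptides that carry a cargo across the cell membrane. FPP-1746 without Omomyc is therefore the carrier alone and Omomyc without FPP-1746 the inhibitor alone, and the comparison sets one component of the fusion against the other. Claudin-low tumours are known for mesenchymal genes and for little of the epithelial junction genes.

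Each ratio given here is the log2 of (FPKM + 1) under FPP-1746 over (FPKM + 1) under Omomyc, so a positive value means a higher level under FPP-1746. Each group is 1 averaged column, so no spread between replicates was seen, no test was run, and no difference below has a replicate check. Ratios at 3 h and at 6 h share no column, so the repeat of a difference at both times was the only check the table allowed. The PBS columns are set beside the peptide columns as untreated values. Summed FPKM lay between 470660 and 494461 in the 4 columns compared. Mesenchymal markers were high: Vim, an intermediate filament protein, stood at 4198 FPKM under Omomyc and 4058 under FPP-1746 at 3 h, and at 3830 and 4066 at 6 h. None of 8 epithelial markers passed the filter, with 0.0993 FPKM as the highest value of any, and Epcam, Cldn3 and Krt18 were at 0 in every column.

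The 2 treatments gave nearly the same transcriptome. At 3 h, 57 of 10262 genes (0.555%) differed at least 2-fold, and at 6 h 50 did (0.487%). By the same rule 0.867% of genes differed between PBS at 6 h and PBS at 3 h, a difference that involves no peptide. Records of small RNAs made up 55 of the 57 and 47 of the 50. Among the other 10122 genes, the 2-fold differences were 2 at 3 h (0.0198%), LOC100302567 and Snhg9, both higher under FPP-1746, and 3 at 6 h (0.0296%), Lsm5, higher, and Ccl5 and Tigit, lower. At 1.5-fold, 15 genes differed in the same direction at both times (0.146%), and 14 of them were small RNA records. Across the 10122 genes without small RNA records the standard deviation of the ratio was 0.096 at 3 h and 0.12 at 6 h. For PBS at 6 h over PBS at 3 h it was 0.25. Across the same genes the ratios at the 2 times had a Pearson correlation of 0.075 and a Spearman correlation of 0.0052. That is a description over genes, which are not replicates, and it shows almost no common pattern over the genome.

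A lower limit, a log2 ratio of at least 0.32 in either direction or a level ratio of 5 to 4, was therefore used for the genes that repeat. It was chosen after the data had been seen. Without the small RNA records, 69 genes passed the 0.32 limit at 3 h (0.682%), 43 higher under FPP-1746 (0.425%) and 26 lower (0.257%). At 6 h 201 passed (1.99%), 71 higher (0.701%) and 130 lower (1.28%). Between the PBS times 16.4% passed the same limit. In the same direction at both times, 16 genes passed (0.158%), 9 higher (0.0889%) and 7 lower (0.0692%), and 3 passed in opposite directions (0.0296%). PBS lay nearer to the Omomyc level for 40 of the 71 genes higher at 6 h and 71 of the 130 lower, and nearer to the FPP-1746 level for the others, so the split was close to even. At 6 h 62 of the 130 lower genes had a mean under 5 FPKM.

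**Figure D1:**
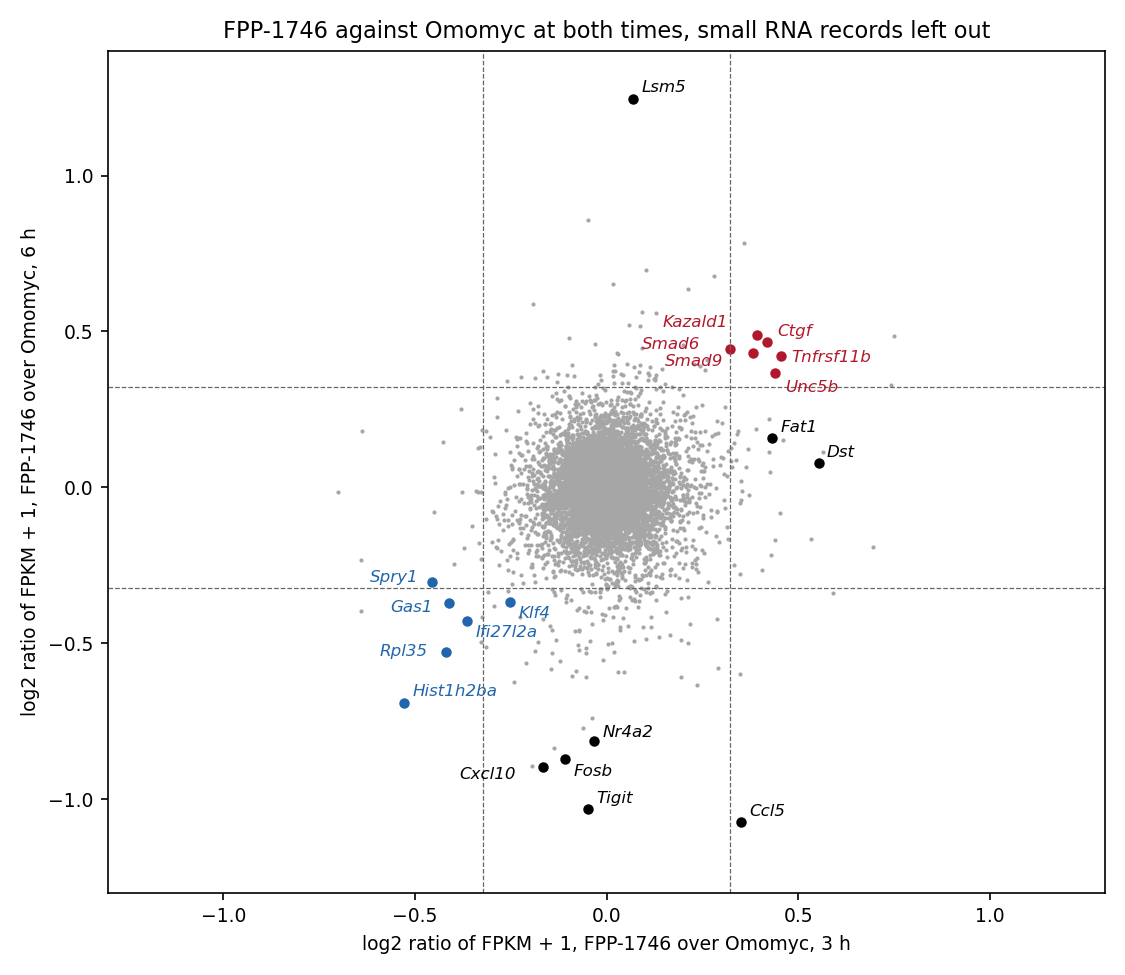
Each point is 1 of 10122 genes, small RNA records left out, placed by its log2 ratio of FPKM + 1 under FPP-1746 over Omomyc at 3 h (x axis) and at 6 h (y axis); dashed lines mark 0.32 in either direction. Red and blue mark named genes that lay on the same side at both times, black marks others named in the text, and LOC100302567 and Snhg9 lie outside the axes. Most genes sit in a cloud around 0, Ctgf lies at 0.42 and 0.47, and Ccl5 lies at 0.35 and -1.07.

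The genes higher under FPP-1746 at both times included secreted and signalling proteins of the TGF-beta and BMP pathways. TGF-beta and BMP ligands bind paired receptor kinases that phosphorylate SMAD proteins, which move to the nucleus with SMAD4 and switch on genes of matrix, matrix turnover and feedback. Ctgf (chr10:24315248-24318488 in mm9), a matricellular protein and a common target of TGF-beta and YAP, showed 58.5 FPKM under PBS, 81.6 under Omomyc and 109 under FPP-1746 at 3 h. At 6 h it showed 15.7, 13.4 and 19.0 FPKM in the same order. The level was lower in all 3 groups at 6 h, and FPP-1746 was the highest of the 3 at both times, with ratios of 0.42 and 0.47. Tnfrsf11b (chr15:54082174-54110039) encodes osteoprotegerin, the decoy receptor that binds RANKL. Its levels were 138 FPKM under PBS, 109 under Omomyc and 149 under FPP-1746 at 3 h, and 101, 88.7 and 119 at 6 h, with ratios of 0.45 and 0.42. For Tnfrsf11b the Omomyc column was the low one at both times, and PBS lay between it and FPP-1746.

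Unc5b (chr10:60225343-60294329), a receptor for netrins, had 24.9 FPKM under PBS, 19.2 under Omomyc and 26.5 under FPP-1746 at 3 h and 18.3, 14.7 and 19.2 at 6 h, with ratios of 0.44 and 0.37. Smad9 (chr3:54559504-54605179), a SMAD that BMP receptors phosphorylate, had 3.45 FPKM under PBS, 2.23 under Omomyc and 3.21 under FPP-1746 at 3 h. At 6 h it had 2.67, 1.94 and 2.97 FPKM, and its ratios were 0.38 and 0.43. Smad6 (chr9:63800883-63869866), the inhibitory SMAD that BMP signalling induces as feedback, had 7.58, 6.03 and 7.79 FPKM at 3 h and 4.25, 3.68 and 5.36 at 6 h. Both SMAD genes were lowest under Omomyc at both times, and Smad6 with ratios of 0.32 and 0.44 fell just short of the limit at 3 h. Kazald1 (chr19:45150629-45153779), a secreted protein with a Kazal-type inhibitor domain, had 4.83, 2.99 and 4.23 FPKM at 3 h and 5.11, 3.52 and 5.35 at 6 h, with ratios of 0.39 and 0.49. In Unc5b, Smad9 and Kazald1, as in Tnfrsf11b and Smad6, Omomyc was the lowest of the 3 columns at both times.

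The promoters of Smad6 and Smad9 are shown because these genes sit on the BMP branch and lay higher under FPP-1746 at both times. Each window runs from 250 bases before to 50 bases after the gene start and was taken from RefSeq on GRCm38.p6. Smad6 is at chr9:64022010-64022309 on the minus strand, and capitals mark GTCTAGAC, a pair of SMAD boxes facing each other, at bases 247 to 254.
Smad6: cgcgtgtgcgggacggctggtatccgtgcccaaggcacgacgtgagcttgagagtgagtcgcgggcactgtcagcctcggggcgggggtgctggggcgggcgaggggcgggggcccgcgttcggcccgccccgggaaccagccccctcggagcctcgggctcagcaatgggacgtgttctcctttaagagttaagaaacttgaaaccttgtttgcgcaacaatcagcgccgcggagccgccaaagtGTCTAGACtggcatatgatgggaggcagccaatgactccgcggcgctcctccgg
Smad9 is at chr3:54755332-54755631 on the plus strand, and capitals mark GGCGCC, a GC-rich motif read by BMP SMADs, at bases 200 to 205 and TGACG, the core of the cAMP response element (CRE), at bases 259 to 263.
Smad9: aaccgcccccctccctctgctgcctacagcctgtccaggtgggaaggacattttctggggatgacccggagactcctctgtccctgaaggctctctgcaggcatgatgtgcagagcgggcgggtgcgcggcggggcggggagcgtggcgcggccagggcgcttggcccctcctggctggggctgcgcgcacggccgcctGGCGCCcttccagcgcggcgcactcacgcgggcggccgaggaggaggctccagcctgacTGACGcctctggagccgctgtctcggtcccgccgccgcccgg

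Both strands were searched, and over the 7334 tested genes with such a window GTCTAGAC was found in 0.177%, GGCGCC in 22.8% and TGACG in 34.7%. The last 2 motifs are thus common in these promoters, and the first is rare. Among the 4 genes past the limit as higher at both times that had a window, none held GTCTAGAC. Smad6 is not among them, since it fell short at 3 h. GGCGCC was in 1 of the 4 and TGACG in 3. Of 2 genes lower at both times with a window, both held GGCGCC and none held TGACG. A match is a description of the letters and shows no binding.

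Of the 7 genes lower under FPP-1746 at both times, only Gas1 was above 20 FPKM in the columns compared. Gas1 (chr13:60275766-60278896), a membrane-anchored co-receptor of Hedgehog signalling, had 65.6 FPKM under PBS, 60.8 under Omomyc and 45.4 under FPP-1746 at 3 h. At 6 h it had 57.7, 73.2 and 56.4 FPKM. At 3 h the FPP-1746 column stood apart as low, and at 6 h the Omomyc column stood apart as high, so the ratios of -0.41 and -0.37 came from different columns. Hist1h2ba (chr13:24025642-24026025), an H2B histone gene, had 2.40, 3.60 and 2.19 FPKM at 3 h and 2.74, 2.22 and 0.996 at 6 h, with ratios of -0.53 and -0.69. Ifi27l2a (chr12:104680377-104681890), an interferon-inducible gene, had 3.95, 4.28 and 3.10 FPKM at 3 h and 4.70, 6.06 and 4.25 at 6 h, with ratios of -0.36 and -0.43. For Ifi27l2a FPP-1746 was the lowest and Omomyc the highest of the 3 at both times.

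Rpl35, a protein of the large ribosomal subunit, had 8.25, 8.64 and 6.21 FPKM at 3 h and 8.43, 8.62 and 5.68 at 6 h, with ratios of -0.42 and -0.53. Its locus is shared with another row of the table, so reads may have been split between them. The other 69 of the 70 tested cytosolic ribosomal protein genes did not pass the 0.32 limit at both times, and the median ratio of the 70 was -0.0044 at 3 h and 0.045 at 6 h. Under pseudocount 5, which damps low levels, Smad9 had ratios of 0.18 and 0.20, Kazald1 0.21 and 0.28, Hist1h2ba -0.26 and -0.27, and Ifi27l2a -0.20 and -0.26, so none of these passed the limit at either time. Unc5b came to 0.30 at 6 h and Rpl35 to -0.28 at 3 h under the same setting. Ctgf, Tnfrsf11b and Gas1 passed at both times under each of the 10 alternatives that apply to a single gene.

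Of the remaining genes that repeated, 1810044D09Rik, Gm20571 and LOC100302567 were higher and 2010003O02Rik, Gm4013 and 2310061J03Rik were lower. These are predicted or uncharacterised records, and LOC100302567 was at 0 FPKM under Omomyc and 11.5 under FPP-1746 at 3 h, then 14.7 and 25.8 at 6 h. Several known regulators came close. Spry1, a feedback inhibitor of receptor tyrosine kinases, had 8.55 FPKM under Omomyc and 5.97 under FPP-1746 at 3 h and 8.40 and 6.62 at 6 h, with ratios of -0.45 and -0.30. Klf4, a zinc-finger transcription factor, had 14.4 and 11.97 FPKM at 3 h and 8.06 and 6.03 at 6 h, with ratios of -0.25 and -0.37. Fn1, which encodes fibronectin, had 152, 170 and 202 FPKM under PBS, Omomyc and FPP-1746 at 3 h and 145, 162 and 195 at 6 h, with ratios of 0.25 and 0.27. Fn1 kept the same order of the 3 columns at both times, though it stayed under the limit. Nuak1, a kinase of the AMPK family, had ratios of 0.26 and 0.41, and Myo10, an unconventional myosin of filopodia, 0.26 and 0.37.

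**Figure D2:**
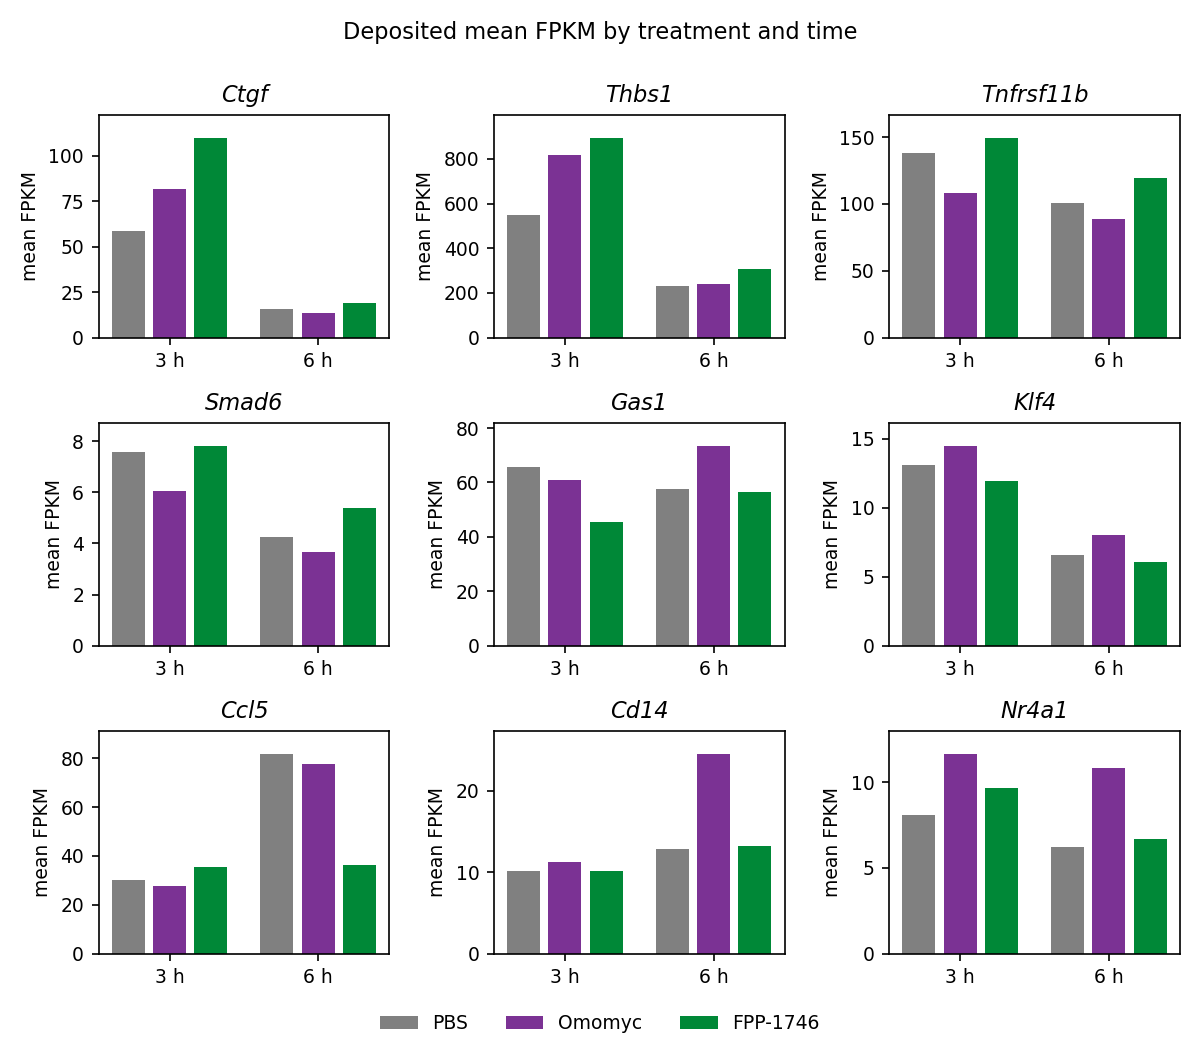
Bars are the authors' average FPKM of 3 replicates per group, from 0, for 9 genes under PBS (grey), Omomyc (purple) and FPP-1746 (green) at 3 h and 6 h; the averages carry no error bars. Ctgf and Thbs1 are highest under FPP-1746 at both times, Ccl5 is lowest under FPP-1746 at 6 h only, and Cd14 and Nr4a1 stand out under Omomyc at 6 h.

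Read as a whole list, 15 of 22 tested TGF-beta and matrix genes had a ratio above 0 at 3 h and 17 at 6 h, where 47.9% and 52.2% of all genes did. The median of the list was 0.053 at 3 h and 0.13 at 6 h, against -0.0033 and 0.0051 for all genes. Past the 0.32 limit, 2 members were higher at 3 h, Ctgf among them, where 0.425% of all genes passed as higher. At 6 h, 4 were higher, Ctgf, Smad6 and Thbs1 among them, and 1 was lower, Col3a1, where 0.701% of all genes passed as higher and 1.28% as lower. Ctgf and Thbs1 passed at 6 h under each alternative, and Smad6 did not. Thbs1, thrombospondin-1, which can activate latent TGF-beta, had 551, 816 and 892 FPKM under PBS, Omomyc and FPP-1746 at 3 h and 231, 240 and 307 at 6 h. Its ratio was 0.13 at 3 h and 0.35 at 6 h, with FPP-1746 the highest column each time. The receptors did not lie with the targets: Tgfbr1 had ratios of -0.04 and -0.09 and Tgfbr2 of -0.14 and -0.18. Col3a1, a fibrillar collagen, had 79.2 FPKM under Omomyc and 63.0 under FPP-1746 at 6 h.

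ID proteins are helix-loop-helix inhibitors that BMP SMADs induce, and HES and HEY repressors are targets of Notch. Of 9 tested genes of this group, 8 had a ratio above 0 at 3 h and 7 at 6 h, where 47.9% and 52.2% of all genes did, with a median of 0.092 and 0.30. At 6 h 4 passed the 0.32 limit, all higher: Id3, Smad6, Hey1 and Hes1, where 0.701% of all genes passed as higher. Smad6 is also a member of the TGF-beta and matrix list. Only Id3 passed at 6 h under each alternative. The smallest 6 h ratio was 0.14 for Hes1, 0.26 for Smad6 and 0.27 for Hey1. Id3 had 164, 170 and 181 FPKM under PBS, Omomyc and FPP-1746 at 3 h, and 129, 140 and 191 at 6 h, with ratios of 0.09 and 0.45. Id1 had 188, 169 and 194 FPKM at 3 h and 159, 143 and 176 at 6 h, with ratios of 0.20 and 0.30. Both ID genes were highest under FPP-1746 at both times, by a small margin over PBS at 3 h. Hey1 had 8.26 FPKM under Omomyc and 11 under FPP-1746 at 6 h, and Hes1 1.20 and 1.83. The 6 h median of this list ranged from 0.033 to 0.39 over the alternatives, the lowest without a filter on low values, and it was above 0 under each of them.

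At 6 h, but not at 3 h, genes of inflammation stood lower under FPP-1746. NF-kB is the transcription factor that drives many cytokines and chemokines after a danger signal, and its inhibitors and subunits are among its own targets. Of 22 tested NF-kB targets and cytokines, 12 had a ratio below 0 at 3 h, where 52.1% of all genes did, and 18 at 6 h, where 47.8% did, and the median went from -0.0091 to -0.25. At 3 h 2 passed the limit, Ccl5 and Lcn2, both higher, where 0.425% of all genes passed as higher. The smallest 3 h ratio of Ccl5 over the alternatives was 0.311, under the limit. Lcn2 was low at 3 h, with 2.14 FPKM under Omomyc and 3.01 under FPP-1746. At 6 h 6 passed, all lower: Ccl5, Saa3, Il6, Cxcl5, Nfkbie and Relb, where 1.28% of all genes passed as lower. Over the alternatives the weakest 6 h ratio was -0.18 for Il6, -0.27 for Nfkbie, -0.28 for Relb and -0.320 for Saa3. Those genes thus did not pass at 6 h under each alternative, Saa3 by a narrow margin, while Ccl5 did at 6 h. Il6 lay under 1 FPKM in both PBS columns and reached the filter only through the fusion columns, with 15.9 and 14.4 FPKM. Ccl7 reached it only with the PBS and fusion columns. Without Il6 and Ccl7, 5 of 20 passed as lower at 6 h. Whether the 2 times differ was not tested.

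Ccl5 (chr11:83339281-83344020), a chemokine that recruits T cells and monocytes, had 30.3, 27.7 and 35.6 FPKM under PBS, Omomyc and FPP-1746 at 3 h. At 6 h it had 81.5, 77.5 and 36.3 FPKM. PBS and Omomyc lay together at the higher level and FPP-1746 remained near the 3 h level, so the 6 h ratio of -1.07 reflects a low FPP-1746 column. Cxcl5, a neutrophil chemokine, had 21.6, 23.3 and 15.9 FPKM at 6 h, with FPP-1746 the low column again. Nfkbie and Relb, an NF-kB inhibitor and an NF-kB subunit, had 6.61, 8.82 and 6.44 FPKM and 23.5, 25 and 19.6 FPKM at 6 h. For Nfkbie PBS lay at the FPP-1746 level and Omomyc stood above both. Il6 reached at most 1.02 FPKM in these columns and Saa3 at most 2.04 FPKM.

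Of 12 tested interferon response genes, 4 passed the limit as lower at 6 h, Cxcl10, Isg15, Ifi35 and Oasl1, where 1.28% of all genes did, and none passed at 3 h. The list's median was -0.0032 at 3 h and -0.069 at 6 h, and the 6 h median ranged from -0.27 to -0.026 over the alternatives. Ifi35 came to -0.26 at 6 h under the weakest of them, inside the limit, while Cxcl10 and Isg15 passed under each that kept them. The locus of Cxcl10 is shared with other rows, so it drops out where shared loci are left out. At 6 h it had 4.62 FPKM under Omomyc and 2.02 under FPP-1746. Oasl1 passed narrowly, with a ratio of -0.323 from 2.24 and 1.59 FPKM. Isg15, a ubiquitin-like protein induced by interferon, had 31.4, 33.4 and 34.5 FPKM under PBS, Omomyc and FPP-1746 at 3 h and 33.7, 34.0 and 22.2 at 6 h. Only the FPP-1746 column at 6 h was low, with a ratio of -0.59. B2m and Irf9 both had a ratio of 0.02 at 6 h, so the list did not move as one.

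In Tigit and Cd14 the Omomyc column was the one that stood apart at 6 h. Tigit (chr16:43648974-43664297), an inhibitory receptor best known from T cells and NK cells, had 7.82, 10.2 and 9.79 FPKM at 3 h and 14.0, 23.4 and 10.9 at 6 h, with a 6 h ratio of -1.03. Cd14, the lipopolysaccharide co-receptor, had 10.1, 11.3 and 10.2 FPKM at 3 h and 12.9, 24.5 and 13.3 at 6 h, with a 6 h ratio of -0.84. In both genes Omomyc at 6 h was the high column and PBS lay nearer to FPP-1746. For Cd14 PBS and FPP-1746 lay together, while for Tigit FPP-1746 also lay below PBS, at 10.9 against 14.0 FPKM. In bulk RNA, fewer cells with a transcript and less of it per cell cannot be told apart. Of the lymphocyte markers, Cd3e and Cd8a were at 0 in every column and Cd4 did not exceed 0.00743 FPKM. Of 6 macrophage markers in the table, Cd14 and Cd68 passed the filter and Emr1 was at 0 in every column. Cd68, a lysosomal protein of macrophages, lay the other way from Cd14 at 6 h, with 1.34 FPKM under Omomyc, 2.00 under FPP-1746 and a ratio of 0.36. Csf1r did not exceed 0.0145 FPKM and Ptprc 0.0256 in the 6 columns without the fusion. The 4 endothelial markers did not exceed 0.166 FPKM.

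Immediate-early genes are switched on within minutes of a stimulus, through SRF and CREB bound at their promoters. Of 31 tested, none passed the 0.32 limit at 3 h and 8 passed it as lower at 6 h: Fosb, Nr4a2, Nr4a1, Egr3, Egr1, Fos, Klf4 and Dusp1. As lower at 6 h 1.28% of all genes passed. Over the alternatives the weakest 6 h ratio was -0.20 for Egr3, -0.19 for Egr1, -0.11 for Fos, -0.24 for Klf4 and -0.25 for Dusp1. Those genes thus did not pass under each alternative, while Fosb, Nr4a2 and Nr4a1 did. Btg2, Egr2, Fos and Nr4a3 had means under 1 FPKM over the 4 columns compared and lay under 1 FPKM in both PBS columns. They reached the filter only through the fusion columns, where Fos had 170 and 27.5 FPKM. Without these 4, 7 of 27 passed as lower at 6 h, 12 of 27 lay below 0 at both times, and the median was -0.055 at 3 h and -0.026 at 6 h. With all 31 the list's median was -0.055 at 3 h and -0.057 at 6 h, and 14 of 31 lay below 0 at both times, where 24.4% of all genes did. Nr4a1 (chr15:101097277-101105225), an orphan nuclear receptor, had 8.11, 11.6 and 9.67 FPKM under PBS, Omomyc and FPP-1746 at 3 h and 6.25, 10.8 and 6.68 at 6 h. Its relative Nr4a2 (chr2:56959637-56976414) had 3.12, 3.32 and 3.23 FPKM at 3 h and 4.01, 7.26 and 3.70 at 6 h. Fosb, a subunit of the AP-1 factor, had 1.83, 1.97 and 1.75 FPKM at 3 h and 1.44, 3.92 and 1.69 at 6 h. In these 3 genes Omomyc at 6 h was again the high column, and PBS and FPP-1746 lay close to each other. The 6 h ratios were -0.63 for Nr4a1, -0.81 for Nr4a2 and -0.87 for Fosb.

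Dusp1, a phosphatase that turns MAP kinases off, had 7.08, 11.1 and 8.49 FPKM at 6 h, with FPP-1746 between PBS and Omomyc. Egr1 and Egr3 had ratios of -0.46 and -0.56 at 6 h at levels under 3 FPKM, and Fos stayed under 1 FPKM. The list did not move as one, since Srf, Ier3 and Junb had 6 h ratios of 0.31, 0.22 and 0.15.

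The promoters of Nr4a1 and Nr4a2 are shown as the pair of related genes in this group, in the same RefSeq windows. Nr4a1 is at chr15:101266596-101266895 on the plus strand, and Nr4a2 is at chr2:57123954-57124253 on the minus strand. Capitals mark TGACG, or CGTCA where it lies on the other strand, and GGCGCC.
Nr4a1: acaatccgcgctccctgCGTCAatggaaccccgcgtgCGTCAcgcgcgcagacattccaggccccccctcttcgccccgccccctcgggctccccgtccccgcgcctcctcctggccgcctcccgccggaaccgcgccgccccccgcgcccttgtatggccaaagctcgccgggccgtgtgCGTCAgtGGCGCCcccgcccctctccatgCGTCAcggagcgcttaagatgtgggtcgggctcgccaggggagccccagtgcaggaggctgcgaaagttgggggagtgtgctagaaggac
Nr4a2: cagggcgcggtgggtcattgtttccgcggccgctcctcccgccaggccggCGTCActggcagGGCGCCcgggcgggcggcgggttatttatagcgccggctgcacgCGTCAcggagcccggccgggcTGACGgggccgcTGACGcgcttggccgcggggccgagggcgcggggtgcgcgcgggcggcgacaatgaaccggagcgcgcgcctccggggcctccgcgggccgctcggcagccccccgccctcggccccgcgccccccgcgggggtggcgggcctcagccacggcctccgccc
Both windows held the CRE core 4 times and GGCGCC once. Among 82 genes past the 0.32 limit as lower at 6 h that had a window, 29.3% held TGACG, against 34.7% of tested genes, and 12.2% held TGANTCA, the AP-1 motif, against 4.36%. Among 46 genes higher at 6 h the AP-1 motif was found in 4.35%. The E-box CACGTG, bound by MYC and MAX, was found in 9.76% of the 82, 8.70% of the 46 and 11.1% of tested genes.

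**Figure D3:**
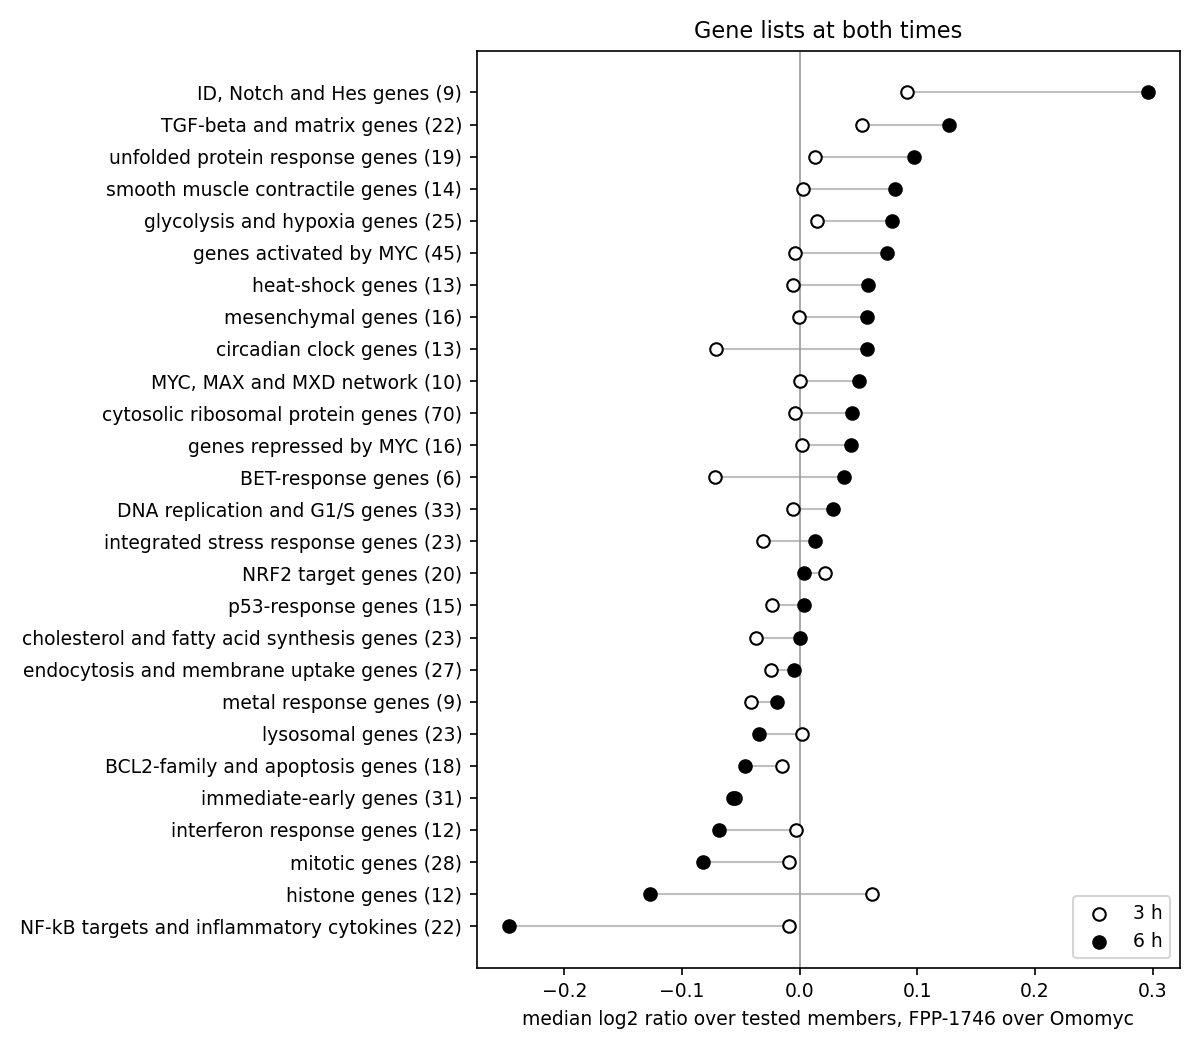
Each row is 1 of 27 gene lists with the number of tested members in brackets; the x axis is the median log2 ratio of FPKM + 1 under FPP-1746 over Omomyc, open circles at 3 h and filled circles at 6 h. The ID, Notch and Hes list stands highest at 6 h with 0.30 and the NF-kB list lowest with -0.25, and the 2 times lie close together for the immediate-early list.

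Genes of the MYC network differed little. Myc itself had 161, 166 and 170 FPKM under PBS, Omomyc and FPP-1746 at 3 h and 106, 98.7 and 109 at 6 h, with ratios of 0.03 and 0.14. Max had 57.6, 57.5 and 58.6 FPKM at 3 h and 44.4, 42.9 and 47.1 at 6 h, with ratios of 0.03 and 0.13. None of the 10 tested genes of the network passed the 0.32 limit at either time. Mxd1 had a mean under 1 FPKM over the 4 columns compared and reached the filter only with other columns, which leaves 9. Of 45 tested genes that MYC is known to activate, none passed the limit, 21 lay above 0 at 3 h and 40 at 6 h, with medians of -0.0037 and 0.074. The 6 h shift was small in size and shared by 40 of the 45 members, where 52.2% of all genes lay above 0. At 3 h 47.9% of all genes lay above 0. Among them Rrp12 and Nop16, both of ribosome assembly, had 6 h ratios of 0.20 and 0.14. Under PBS, Omomyc and FPP-1746 at 6 h, Rrp12 had 28.8, 28.7 and 33.1 FPKM and Nop16 67.2, 66.4 and 73.2. In both, PBS lay at the Omomyc level and FPP-1746 stood higher. The position of PBS was not counted over the whole list.

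Of 16 tested genes that MYC is known to repress, 2 were higher at 6 h, Ndrg1 and Thbs1, and 2 were lower, Dusp1 and Col3a1. Among all genes 0.701% and 1.28% were, and none of the 16 passed at 3 h. Txnip reached the filter only with columns outside the 4 compared. Without it the same 2 and 2 of 15 passed. Cdkn1a, the cell-cycle inhibitor p21, had 2.67, 3.12 and 2.63 FPKM at 3 h and 3.05, 2.45 and 2.78 at 6 h. Its ratios of -0.18 and 0.13 had opposite signs and both lay inside the limit.

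At 3 h the ratio also followed transcript length. Of 10122 genes without the small RNA records, 9153 (90.4%) had a longest transcript in GENCODE M21. For 87 genes with a transcript of at least 12000 bases the median ratio was 0.12 at 3 h and 0.0025 at 6 h. At 3 h 87.4% of the 87 lay above 0 and 9 passed the 0.32 limit as higher (10.3%, against 0.425% of all genes), and none was lower. At 6 h none passed in either direction and 50.6% lay above 0. Against PBS at 3 h the same genes had a median of 0.16 under FPP-1746 and 0.032 under Omomyc, ratios that share the PBS column.

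Dst, a cytoskeletal linker with a transcript of 23279 bases, had 5.03, 5.06 and 7.90 FPKM under PBS, Omomyc and FPP-1746 at 3 h, and 5.03 and 5.36 under Omomyc and FPP-1746 at 6 h. Fat1, a giant cadherin, had 9.86, 9.64 and 13.4 FPKM at 3 h, and Huwe1, a ubiquitin ligase, 43.7, 45.9 and 57.8 FPKM. In Dst, Fat1 and Huwe1 PBS and Omomyc lay together at 3 h and FPP-1746 alone stood higher. For 360 genes with transcripts under 1000 bases the median was 0.012 at 3 h and -0.029 at 6 h. At 6 h 24 of them passed the limit as lower (6.67%, against 1.28% of all genes). They also passed more often as higher at 6 h (1.94%, against 0.701%). At 3 h 3.06% passed as higher, against 0.425%, and 1.39% as lower, against 0.257%. Ccl5, Tigit, Isg15, Hist1h2ba and Ifi27l2a have such short transcripts. So do Lsm5, higher at 6 h, with 757 bases, and Snhg9, higher at 3 h, with 183. Tnfrsf11b has 2818 bases, Unc5b 5869, Smad6 2971 and Smad9 5368. Fn1 has 8315 bases and Myo10 8125. Of the 509 genes with at least 8000 bases, 77.4% had a positive ratio at 3 h. The part of transcript length in the values of single genes was not tested.

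**Figure D4:**
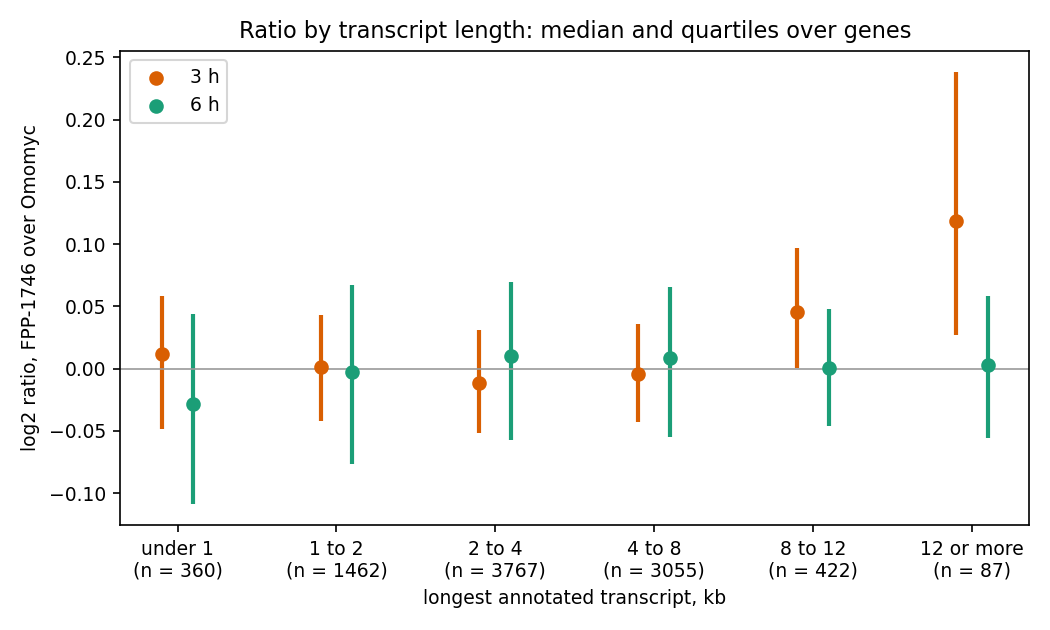
The x axis groups 9153 genes by their longest annotated transcript in kb and the y axis is the log2 ratio of FPKM + 1 under FPP-1746 over Omomyc; points are medians and bars run between the quartiles over genes, orange at 3 h and green at 6 h. Only the 3 h points leave the zero line upward, at 8 to 12 kb and most at 12 kb or more, with a median of 0.12 for 87 genes.

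The small RNA records were the least stable rows. Of 140 tested, 95 were listed at 0 in at least 1 of the 4 columns compared, and the standard deviation of their ratio was 2.77 at 3 h and 2.76 at 6 h. At 2-fold, 10 passed in the same direction at both times and 10 in opposite directions, each 0.0974% of the 10262 genes, so the direction repeated no more often than it turned. Mir221, the record with the largest repeat among those at a locus of their own, was listed at 0 under PBS and Omomyc at both times, at 10.97 FPKM under FPP-1746 at 3 h and at 24.5 at 6 h. Mir704 was likewise at 0 under PBS and Omomyc and at 44.3 and 38.3 FPKM under FPP-1746. In the other direction Mir1894 had 41.7 FPKM under Omomyc at 3 h and 30.9 at 6 h and 0 under FPP-1746 at both times, and Mir1306 36.2 and 0 at 3 h and 55.1 and 12.7 at 6 h. Loci of Mir704, Mir1894 and Mir1306 are shared with other rows of the table, and no fold is given against a column at 0.

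Mature sequences of these 4 records are shown, from RefSeq on GRCm38.p6, because they are the records that repeated most. Capitals mark the seed, bases 2 to 8, which pairs with the target.
mmu-miR-221-3p: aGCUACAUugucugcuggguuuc
mmu-miR-221-5p: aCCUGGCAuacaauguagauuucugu
mmu-miR-704: aGACAUGUgcucugcuccuag
mmu-miR-1894-3p: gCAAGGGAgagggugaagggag
mmu-miR-1306-3p: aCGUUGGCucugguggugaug
No seed is shared between them. Standard RNA-seq libraries are not made to capture mature miRNAs, so these values are not levels of the mature forms.

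Genes past the limit at 6 h had a median level of 10.7 FPKM for the 71 higher and 5.35 FPKM for the 130 lower, as the mean over the 8 columns. At 6 h Lsm5, a subunit of the LSM ring that binds RNA ends, had 1.60 FPKM under PBS, 0.831 under Omomyc and 3.34 under FPP-1746, with a ratio of 1.247. Foxc2, a forkhead factor of mesenchymal cells, had 30.1, 31.8 and 32.1 FPKM at 3 h and 17.4, 13.2 and 21.4 at 6 h, with ratios of 0.02 and 0.65. Edn1, which encodes endothelin-1, had 10.2, 14.3 and 16.7 FPKM at 3 h and 3.70, 2.41 and 4.31 at 6 h, with ratios of 0.21 and 0.64. Foxc2 and Edn1 were highest under FPP-1746 and lowest under Omomyc at 6 h. Atoh8, a helix-loop-helix factor, had 15.4, 10.4 and 15.7 FPKM at 6 h and a ratio of 0.56, with Omomyc the low column.

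At 3 h the median level of the 43 higher genes was 4.01 FPKM and that of the 26 lower genes 3.68 FPKM, as the mean over the 8 columns. Rnaset2b, a secreted ribonuclease, had 3.14, 1.69 and 2.99 FPKM under PBS, Omomyc and FPP-1746 at 3 h, with ratios of 0.57 at 3 h and 0.11 at 6 h. Polr2k, a small subunit of the RNA polymerases, had 3.03, 1.94 and 2.96 FPKM at 3 h, with ratios of 0.43 and -0.22. In both the Omomyc column was the low one at 3 h. Osgin1, a gene induced by oxidative stress, had 7.13, 8.39 and 6.23 FPKM, with ratios of -0.38 and -0.02, and Mertk, a receptor for apoptotic cells, had 2.54, 2.78 and 1.98 FPKM, with ratios of -0.34 and -0.01. None of Rnaset2b, Polr2k, Osgin1 and Mertk passed the limit at 6 h.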

How the data were processed

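RNA was sequenced from T11 cells in 24 samples, 8 groups of 3 biological replicates. The authors deposited 1 table of FPKM values per gene symbol, averaged over the replicates of each group, per the file headers; single-replicate values were not used. Per the submitters' processing notes, the build was mm9 and the tools were STAR 2.1.3, bcl2fastq 2.17.1.14, Cuffnorm 2.2.1 and Cufflinks 2.2.1. Tool order, settings, library scaling and use of strand were not given in the sources used here. FPKM averages carry no read depth, so counting error could not be set for a value, and low rows and short RNAs are the least precise.

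From the deposited FPKM values, log2 ratios were computed with a pseudocount of 1 over 10262 genes whose mean over the 8 columns reached 1 FPKM (Python 3.11.15, pandas 2.3.3, numpy 2.4.6, matplotlib 3.10.9). A fold rule replaced a test: 2-fold at 1 time, 1.5-fold for a repeat at both times. The limit of 0.32 on the log2 scale was added after the data had been seen. The members, the 27 gene lists and the 6 marker lists were chosen with earlier results of these data known. Named genes were the 10 highest and 10 lowest ratios at each time, the 12 highest and 12 lowest that repeated in sign, up to 3 members of each list, Myc, Max and Cdkn1a, and at most 4 small RNA records, leaving predicted genes out; genes named beyond these were chosen after their values were seen. Some genes that met the rule or belong to a list are counted but not reported by name here. Alternatives were other pseudocounts, filters, scalings and folds, and leaving out small RNA records or the 1841 tested rows with a shared locus. The code was tested on simulated data. Promoter and miRNA sequences came from RefSeq on GRCm38.p6 by symbol, gene positions from the deposited table in mm9, and transcript lengths from GENCODE M21 as the longest transcript of a symbol.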

Additional observations from a re-analysis of the deposited data

Results flagged for a closer look

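In 3 genes the log2 ratio of FPP-1746 over Omomyc passed 0.32 in opposite directions at 3 h and 6 h. Whether the 2 times differ was not tested. Ccl5 had 0.35 at 3 h and -1.07 at 6 h. Ccl17, a chemokine for T cells, had 0.59 and -0.34, with 0.972 FPKM under Omomyc and 1.97 under FPP-1746 at 3 h and 2.25 and 1.57 at 6 h. Mylpf, a myosin light chain of fast skeletal muscle, had 0.35 and -0.60, with 0.646 and 1.09 FPKM at 3 h and 1.41 and 0.594 at 6 h. Ccl17 and Mylpf stayed under 3 FPKM in these columns, and Ccl5 did not. Over the alternatives the weakest ratios were 0.22 and -0.14 for Ccl17 and 0.11 and -0.20 for Mylpf. For Ccl5 the weakest 3 h ratio was 0.311, under the limit, while its 6 h ratio passed under each. None of the 3 genes thus passed at both times under each alternative.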

How the results depend on the processing

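No paired analysis was possible because the columns are group averages that carry no replicate numbers, and for the same reason no replicate could be left out. The counts of genes past 2-fold, 57 at 3 h and 50 at 6 h, and of genes past 1.5-fold the same way at both times, 15, stayed within 1.5 times under pseudocounts of 0.1 and 5, 3 other filters and 3 other scalings. Leaving out small RNA records gave 2, 3 and 1. Leaving out rows with a shared locus gave 8, 11 and 2. A 1.5-fold rule gave 84 at 6 h, and a limit of 0.32 on the log2 scale gave 148, 273 and 36. With small RNA records also left out, it gave 201 at 6 h. In these cases fewer rows or a lower limit set the count by construction. Over all alternatives, 2748 ratios of named genes stayed within 1 standard deviation of the ratios of all genes (0.096 at 3 h, 0.12 at 6 h) and 156 moved further, and 533 list medians stayed within 0.05 and 7 moved further. The groups are averages of 3 replicates, so whether any single difference exceeds the spread between cultures cannot be seen.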

Other observations

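Several gene groups not described above had small shifts of 1 sign at 6 h. Of 28 tested mitotic genes, 25 had a ratio below 0 at 6 h, where 47.8% of all genes did, with a median of -0.083. At 3 h 18 lay below 0, where 52.1% of all genes did, with a median of -0.0088. None of the 28 passed the 0.32 limit. Kif11, a spindle motor, had 30.9, 33.9 and 29.3 FPKM under PBS, Omomyc and FPP-1746 at 6 h. The unfolded protein response is the reaction to misfolded protein in the endoplasmic reticulum. Of its 19 tested genes, 17 lay above 0 at 6 h, where 52.2% of all genes did. Their median was 0.097, and none passed the limit. Xbp1, a factor of this response, had 26.8 FPKM under Omomyc and 29.7 under FPP-1746 at 3 h and 20.8 and 24.4 at 6 h.

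Of 25 tested glycolysis and hypoxia genes, 3 passed the limit as higher at 6 h, Car9, Ndrg1 and Ankrd37, where 0.701% of all genes did, and none passed at 3 h. The smallest 6 h ratio over the alternatives was 0.31 for Car9 and 0.29 for Ankrd37, under the limit. Car9, a carbonic anhydrase induced by HIF, had 11.2, 7.84 and 10.9 FPKM at 6 h, and Ndrg1 34.3, 26.4 and 34.0, with Omomyc the low column in both. Hmox1, which degrades haem, had 44.9, 34.2 and 43.2 FPKM at 6 h, a ratio of 0.33, with Omomyc low again. Mt2, a metallothionein, had 34.5, 31.1 and 21.2 FPKM, a ratio of -0.53, with FPP-1746 the low column. Clock genes differed in both directions at 6 h, Arntl with a ratio of 0.39 and Per2 with -0.42. Of 12 tested histone genes, 9 lay above 0 at 3 h and 9 below 0 at 6 h, with medians of 0.061 and -0.13. Among all genes 47.9% lay above 0 at 3 h and 47.8% below 0 at 6 h. No explanation of these shifts was tested.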
